A study of Mus musculus with 2 samples.

Results

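The Lgr receptors and their R-spondin ligands comprised 7 genes, the 3 receptors Lgr4, Lgr5 and Lgr6 and the 4 ligands Rspo1, Rspo2, Rspo3 and Rspo4, out of 28000 genes counted in both libraries. They were chosen by name, without a threshold on a measured value, at a time when earlier results of these data were known. R-spondins are secreted proteins that bind Lgr receptors together with the membrane E3 ubiquitin ligases Rnf43 and Znrf3, which otherwise remove Frizzled receptors from the cell surface, so that R-spondin raises the response of a cell to Wnt. Lgr5 is known as a marker of intestinal stem cells and is itself a Wnt target gene, and R-spondins in many epithelial organs come from the surrounding stroma.

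Single-cell RNA-seq was performed on dissociated prostate tumor tissue from 2 genotypes of transgenic mice, with 1 library each. DoubleTg mice (hHGFtg:H11hMET/+:PBCre4) carried a human HGF transgene expressed throughout the body and a human MET transgene that Cre recombinase switches on under the probasin promoter of PBCre4, which is active in prostate epithelium. TripleTg mice (hHGFtg:H11hMET/+:Ctnnb1L(Ex3)/+:PBCre4) carried the same alleles and, in addition, a Ctnnb1 allele that loses exon 3 in Cre-expressing cells, which leaves a stabilized β-catenin, the effector of canonical Wnt signaling. Both genotypes therefore shared the HGF and MET transgenes and Cre. The age of the mice used for these libraries and whether animals were pooled were not given in the sources used here. The labels called the DoubleTg tissue prostatic adenocarcinoma and the TripleTg tissue prostatic carcinoma. With 1 library per genotype no test between genotypes was possible, and all intervals below are 95% intervals that cover counting error only.

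Cells were kept by the gene-number and mitochondrial cut-offs that the study states, which left 10598 of 12072 DoubleTg cells and 9492 of 9492 TripleTg cells, with medians of 16761 and 20097 UMIs per cell. The TripleTg file as deposited held only cells within these cut-offs, whereas the DoubleTg file did not, so the libraries had been treated differently before deposit, and the DoubleTg cells kept here outnumber those the study counted. Clustering without the 7 genes gave 26 DoubleTg and 28 TripleTg clusters, and 30 cell barcodes occurred in both libraries. Luminal-like cells (5050 in DoubleTg, 4214 in TripleTg) had Krt8 in 99.7% and 99.9% of cells and Hoxb13, a transcription factor of prostate epithelium, in 79.1% and 35.3%. Among basal-like cells (1870 and 1270), Krt5 was found in 94.5% and 85.4%, and Trp63 in 14.2% and 46.2%. Fibroblast-like cells (947 and 631) had Dcn in 97.5% and 90.8%. Clusters that passed none of the naming rules held 1365 DoubleTg and 1913 TripleTg cells and stayed unnamed. At 5000 UMIs per cell the human MET transgene was detected in 3291 of 4838 DoubleTg but only 420 of 4085 TripleTg luminal-like cells, and the loss of Ctnnb1 exon 3 could not be checked, since 3′ counts do not read that exon.

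The receptors lie apart in the genome (coordinates of GRCm38). Lgr4 spans chr2:109917647-110014257 on the plus strand, Lgr5 spans chr10:115450311-115587780 on the minus strand, and Lgr6 spans chr1:134983301-135105276 on the minus strand. Of the ligands, Rspo1 spans chr4:124986430-125009099 on the plus strand, Rspo2 spans chr15:43020794-43170826 on the minus strand, Rspo3 spans chr10:29452416-29535867 on the minus strand, and Rspo4 spans chr2:151842927-151874668 on the plus strand. Promoter sequences from RefSeq (GRCm38.p6) were matched for 4 of the 7 genes. The 250 bases before the starts of Lgr4 and Lgr6 are shown because these receptors differed in opposite directions between the genotypes, as described further on. Lgr4 is read from chr2:109917397-109917646 on the plus strand and Lgr6 from chr1:135105277-135105526 on the minus strand.
Lgr4: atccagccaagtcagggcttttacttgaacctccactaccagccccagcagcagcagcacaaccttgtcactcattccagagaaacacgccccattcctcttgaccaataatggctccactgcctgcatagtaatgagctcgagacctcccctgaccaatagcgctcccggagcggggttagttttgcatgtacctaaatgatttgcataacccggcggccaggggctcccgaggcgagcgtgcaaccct
Lgr6: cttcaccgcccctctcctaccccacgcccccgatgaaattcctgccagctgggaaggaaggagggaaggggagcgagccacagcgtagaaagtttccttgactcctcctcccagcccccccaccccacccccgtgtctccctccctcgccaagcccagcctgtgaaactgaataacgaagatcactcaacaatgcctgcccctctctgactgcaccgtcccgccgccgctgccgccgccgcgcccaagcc
Neither holds CTTTGAA or CTTTGAT on either strand, the letters commonly bound by the TCF and LEF partners of β-catenin, nor do the Rspo1 and Rspo4 windows, and of 32851 promoter windows of this length 7.48% hold at least 1 of them. This says only that these letters are not in these windows. GC content was 55.6% for Lgr4 and 65.2% for Lgr6, beside a median of 52.4% over all windows, with 10 and 16 CpG dinucleotides against a median of 6.

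Receptor expression in the epithelium was compared first. In epithelial-like cells Lgr5 was far higher in TripleTg than in DoubleTg, Lgr6 appeared in TripleTg and was nearly undetected in DoubleTg, and Lgr4 was moderately lower. Levels are given as CPM, the UMIs of a gene per 1000000 UMIs of the class. Lgr5 had 73 UMIs, or 0.317 CPM (0.248 to 0.398), in DoubleTg and 2329 UMIs, or 12.4 CPM (11.9 to 13.0), in TripleTg, a log2 ratio of 5.30 (4.96 to 5.65). Lgr6 had 6 UMIs, or 0.0260 CPM (0.00956 to 0.0567), and 743 UMIs, or 3.97 CPM (3.69 to 4.26), a log2 ratio of 7.25 (6.12 to 8.70). Lgr4 had 7689 UMIs, or 33.4 CPM (32.6 to 34.1), and 4254 UMIs, or 22.7 CPM (22.0 to 23.4), a log2 ratio of -0.55 (-0.61 to -0.50). By class the Lgr4 log2 ratio was -0.41 (-0.47 to -0.35) in luminal-like and -0.15 (-0.31 to 0.0066) in basal-like cells. In seminal vesicle-like cells it was -0.74 (-1.20 to -0.27). These last cells numbered 127 in DoubleTg and formed clusters of 443 and 168 cells in TripleTg. The part of this difference in make-up in the pooled ratios was not tested. Of the 3 members with at least 1 CPM in either library, 2 were thus past 2-fold higher and 0 past 2-fold lower in TripleTg. Among all 12154 genes at that level, 12.6% were past 2-fold higher and 13.9% past 2-fold lower, with a median log2 ratio of -0.13.

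Lgr4 is the most widely expressed of these receptors in adult tissues, and it was above the immune-like background in the luminal-like and basal-like cells of both libraries. In luminal-like cells it stood at 35.1 CPM (34.3 to 36.0) in DoubleTg and 26.4 CPM (25.5 to 27.3) in TripleTg. Basal-like cells had 24.7 CPM (22.8 to 26.7) and 22.3 CPM (20.6 to 24.0), with intervals that overlapped. Seminal vesicle-like cells, named from the Svs secretory genes, were lowest in both libraries at 10.1 CPM (7.58 to 13.2) and 6.05 CPM (5.17 to 7.04), with intervals that overlapped the background of immune-like cells at 5.98 CPM (4.47 to 7.85) and 4.999 CPM (3.35 to 7.18). The order luminal-like, basal-like, seminal vesicle-like was the same in both libraries. The luminal-like and basal-like intervals did not overlap in either. The immune-like background leaves out the unnamed TripleTg clusters, some of which had immune genes. Among the 5 of these with at least 50 cells, Lgr4 was lowest at 22.9 CPM, in cells led by S100a8, near the TripleTg basal-like level.

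Within a genotype Lgr4 varied more among luminal-like clusters than it differed between genotypes. Across the 10 DoubleTg luminal-like clusters it ran from 17.3 CPM (15.9 to 18.8) in cells led by Sbp, Sbpl and Scgb2b27, secretory genes, to 48.1 CPM (44.6 to 51.7) in cells led by Spink5, Cxcl17 and Cxcl5. The 8 TripleTg luminal-like clusters ran from 13.9 CPM (12.2 to 15.7) in cells led by Tchh, Fabp4 and Cnfn to 45.8 CPM (39.4 to 53.0) in interferon-response cells led by Ifit3, Ifit1 and Rsad2. The cluster medians were 35.6 and 23.2 CPM. Cells led by Ifit and Rsad2 genes were found in both libraries, and their Lgr4 levels overlapped, at 43.4 CPM (37.9 to 49.5) in DoubleTg and 45.8 CPM in TripleTg. Proliferating cells led by Ube2c also occurred in both, with 30.9 CPM (25.2 to 37.7) and 24.05 CPM (21.1 to 27.2). Cells led by 9530053A07Rik, also found in both, had 22.6 CPM (20.3 to 25.1) and 22.4 CPM (20.6 to 24.3). In these 3 pairs chosen after their values were seen, the intervals overlapped between genotypes.

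**Figure D1:**
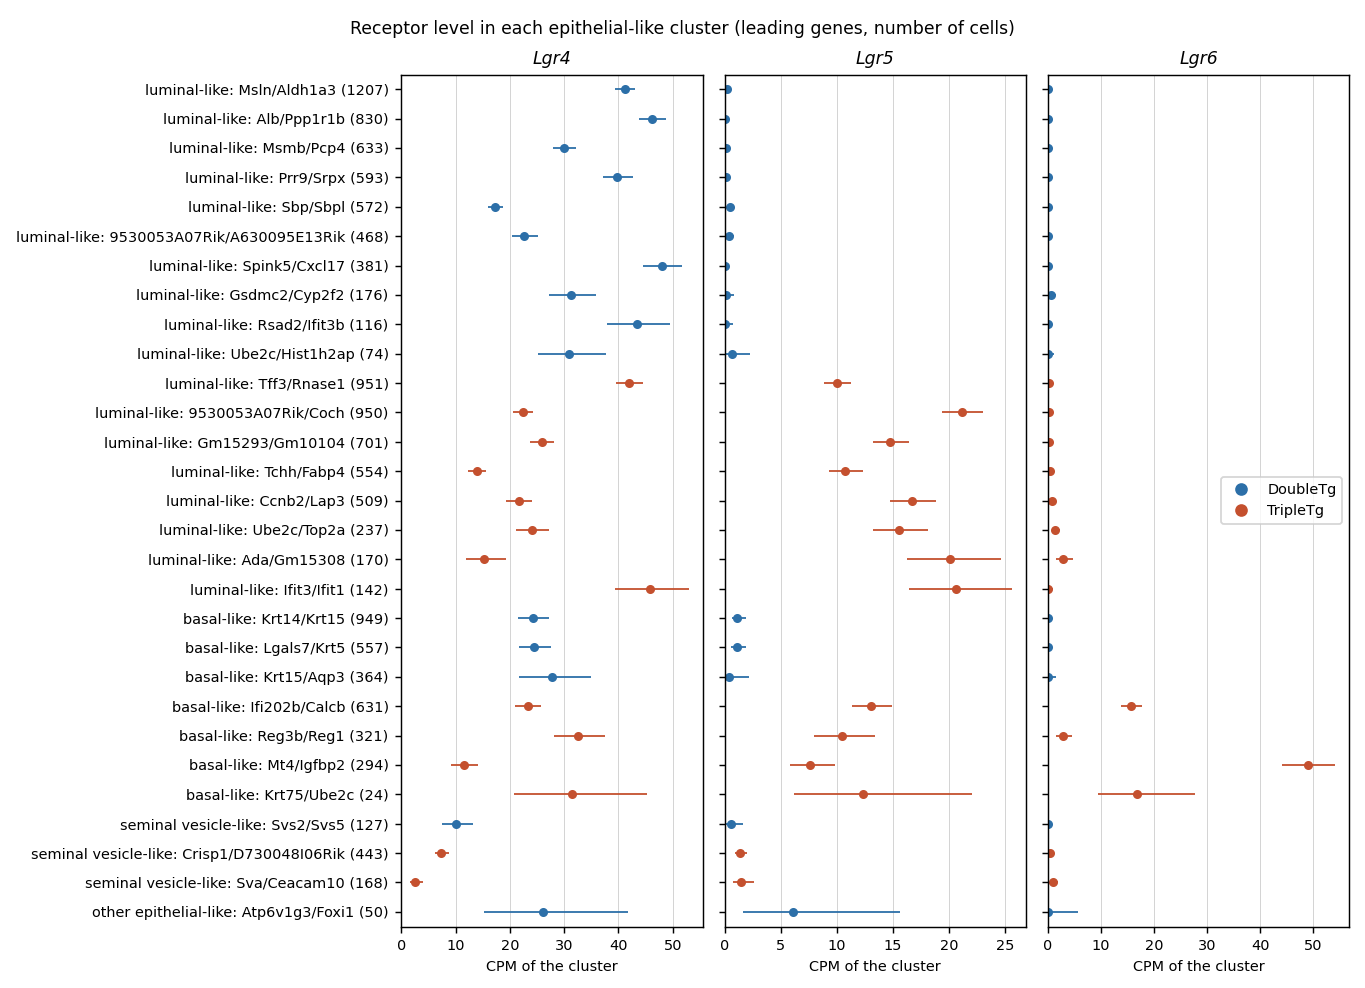
Level of Lgr4, Lgr5 and Lgr6 (horizontal axis, CPM of the cluster, linear) in each epithelial-like cluster, named by its 2 leading genes with its number of cells. Points are clusters of 1 library and bars are 95% counting intervals. Lgr4 was spread over both libraries, Lgr5 was at 10.0 CPM or more in all 8 TripleTg luminal-like clusters and at 0.625 CPM or less in the 10 DoubleTg ones, and Lgr6 was highest in the TripleTg basal-like cluster led by Mt4 and Igfbp2.

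Lgr5 was broadly present in the TripleTg luminal-like cells rather than confined to a cluster. Luminal-like cells had 39 UMIs, or 0.196 CPM (0.140 to 0.268), in DoubleTg and 1942 UMIs, or 15.1 CPM (14.5 to 15.8), in TripleTg, a log2 ratio of 6.27 (5.81 to 6.76). Of 11979 genes measured in luminal-like cells, 14.4% were past 2-fold higher in TripleTg and 14.7% past 2-fold lower. The TripleTg clusters lay between 10.0 CPM (8.86 to 11.3), in cells led by Tff3, Rnase1 and Car8, and 21.2 CPM (19.4 to 23.1), in cells led by 9530053A07Rik, Coch and Defb50. The DoubleTg clusters lay between 0 and 0.625 CPM (0.0757 to 2.26), so the groups of clusters did not overlap. Proliferating TripleTg cells were not set apart, with 15.5 CPM (13.2 to 18.1) in the Ube2c cluster and 16.7 CPM (14.8 to 18.9) in the Ccnb2 cluster beside a cluster median of 16.1. The intervals also overlapped between TripleTg luminal-like cells with and without a human MET transgene UMI at 5000 UMIs per cell, at 16.2 CPM (11.2 to 22.6) in 420 cells and 16.8 CPM (14.9 to 18.7) in 3665 cells.

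In basal-like cells Lgr5 had 27 UMIs, or 1.04 CPM (0.686 to 1.51), in DoubleTg and 349 UMIs, or 11.2 CPM (10.04 to 12.4), in TripleTg, a log2 ratio of 3.43 (2.86 to 4.05). As classes of TripleTg, basal-like cells were below luminal-like cells, without overlap of the intervals. This order did not hold for every cluster. The basal-like Ifi202b cluster of 631 cells was at 13.05 CPM, above the luminal-like Tff3 and Tchh clusters at 10.0 and 10.8 CPM. In basal-like cells 19.6% of 12237 genes were past 2-fold higher in TripleTg and 13.1% past 2-fold lower. The basal-like class was made of different clusters in the libraries, with Krt15 in 98.4% of its cells in DoubleTg and 49.7% in TripleTg. Seminal vesicle-like cells stayed low, with 3 UMIs, or 0.573 CPM (0.118 to 1.67), in DoubleTg and 38 UMIs, or 1.38 CPM (0.975 to 1.89), in TripleTg, a log2 ratio of 1.27 (-0.39 to 3.61) in a class where 7.36% of 11202 genes were past 2-fold higher and 21.9% past 2-fold lower. Immune-like cells, which should lack Lgr5, had 0.575 CPM (0.187 to 1.34) and 1.21 CPM (0.485 to 2.49). The seminal vesicle-like intervals of both libraries and the luminal-like and basal-like intervals of DoubleTg overlapped this background, so no order of the DoubleTg classes is read from them. The immune-like class was made up differently, of 275 macrophage-like, 96 dendritic-like and 438 T or NK-like cells in DoubleTg but only 434 macrophage-like and 47 dendritic-like cells in TripleTg. TripleTg clusters with T or NK or neutrophil genes stayed unnamed and had higher Lgr5, at 11.5 CPM (8.04 to 15.9) in the 143 cells led by Gzma, Ccl5 and Gzmc, of which 77.6% had Ptprc, and 13.7 CPM (8.81 to 20.4) in the 149 cells led by S100a8, Retnlg and S100a9. In these clusters the epithelial markers were found on average in 90.9% and 76.4% of cells. A DoubleTg cluster of 50 epithelial cells led by Atp6v1g3, Foxi1 and Ctgf, of which the first 2 are genes of ionocyte-type cells, had 4 UMIs of Lgr5 in 2 cells, or 6.13 CPM (1.67 to 15.7).

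Counts per cell were low throughout. Of 4214 TripleTg luminal-like cells, 2987 had no Lgr5 UMI, 813 had 1, 245 had 2 and 169 had 3 or more, with a highest count of 9. Without thinning 29.1% of them had at least 1 UMI, and 0.515% of DoubleTg luminal-like cells did. After each cell was thinned to 5000 UMIs and shallower cells were left out (212 DoubleTg and 129 TripleTg cells), the shares were 0.124% (0.0455 to 0.270) and 7.71% (6.91 to 8.57). Immune-like cells at this depth had Lgr5 in 0.724% (0.235 to 1.68) and 0.441% (0.0534 to 1.58). Thinned Lgr4 shares in luminal-like cells were 16.1% (15.04 to 17.1) and 11.6% (10.6 to 12.6). A cell without a UMI at this depth is not shown to lack the gene.

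**Figure D2:**
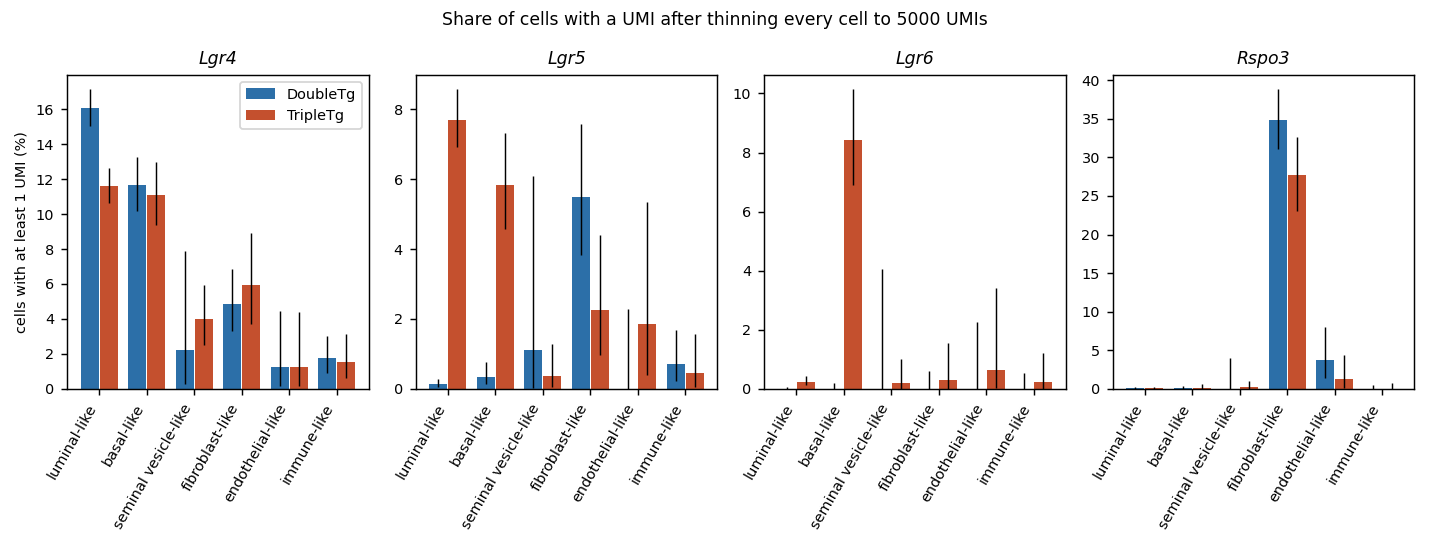
Percent of cells with at least 1 UMI of Lgr4, Lgr5, Lgr6 and Rspo3 (vertical axis, from 0) by class, after every cell was thinned to 5000 UMIs. Bars are 1 library each and lines are exact 95% binomial intervals. Lgr6 reached 8.42% of TripleTg basal-like cells, and Rspo3 reached 34.9% and 27.7% of fibroblast-like cells in DoubleTg and TripleTg.

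Lgr6, which in skin marks progenitor cells of hair follicles and epidermis, was a basal-like transcript in TripleTg. Basal-like cells had 675 of the 773 TripleTg Lgr6 UMIs (87.3%) while making up 13.4% of the cells. The cluster led by Mt4, Igfbp2 and Ptn alone held 49.7% of the UMIs, and its basal markers were found on average in 62.0% of cells, just past the share of 0.6 needed for the name, with none among its 10 leading genes. Their level was 21.6 CPM (20.03 to 23.3), beside 0.428 CPM (0.323 to 0.557) in luminal-like, 0.471 CPM (0.251 to 0.806) in seminal vesicle-like and 0.345 CPM in immune-like cells, while smooth muscle-like cells had 6 UMIs in 2 of 104 cells, or 4.69 CPM (1.72 to 10.2). Basal-like DoubleTg cells had 1 UMI, or 0.0386 CPM (0.000976 to 0.215), which gives a log2 ratio of 9.13 (6.65 to 14.44). This ratio rests on that 1 UMI and was 7.55 when 3 UMIs are set for DoubleTg. With finer clusters (Leiden resolution 2) the DoubleTg basal-like level was 0.158 CPM (0.0512 to 0.368). The luminal-like and seminal vesicle-like levels of TripleTg as classes were thus near its immune-like background, whose interval was 0.0418 to 1.25 CPM. Among luminal-like clusters the highest level was 2.79 CPM (1.48 to 4.76), in the 170 cells led by Ada, Gm15308 and Egfl6.

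Within the TripleTg basal-like cells Lgr6 was uneven. It was highest in the 294 cells led by Mt4, Igfbp2 and Ptn, with 384 UMIs, or 49.0 CPM (44.2 to 54.1). The 631 cells led by Ifi202b, Calcb and Ivl, the last a gene of the cornified envelope, had 260 UMIs, or 15.6 CPM (13.8 to 17.7). The 321 cells led by Reg3b, Reg1 and Reg3g, regenerating-family secreted lectins, had 16 UMIs, or 2.74 CPM (1.56 to 4.44). These intervals did not overlap. Lgr4 and Lgr5 ran differently over the same clusters. Lgr4 was lowest where Lgr6 was highest, at 11.5 CPM (9.23 to 14.1) in the Mt4 cluster against 32.5 CPM (28.0 to 37.5) in the Reg3b cluster, and Lgr5 was 7.65 CPM (5.84 to 9.85) and 10.4 CPM (7.98 to 13.4) in them. A cluster of 24 proliferating cells led by Krt75 had 15 UMIs of Lgr6, or 16.8 CPM (9.40 to 27.7).

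Detection in the same cell was compared at 5000 UMIs per cell. Of 70 TripleTg basal-like cells with Lgr5, 6 had Lgr6 (8.57%, 3.21 to 17.7), beside 8.41% (6.85 to 10.2) of the 1130 cells without Lgr5. In luminal-like cells Lgr5 was found in 7.81% (5.56 to 10.6) of the 474 cells with Lgr4 and 7.70% (6.85 to 8.62) of those without. The intervals overlapped in both pairs. Axin2, a feedback target of β-catenin, was found in 37.5% (32.1 to 43.1) of 315 luminal-like cells with Lgr5 and in 29.8% (28.4 to 31.3) of the 3770 without. For 2 other feedback genes the intervals overlapped, with Rnf43 in 13.97% (10.3 to 18.3) and 12.0% (10.9 to 13.0), and Znrf3 in 11.1% (7.86 to 15.1) and 12.8% (11.7 to 13.9), of cells with and without Lgr5. In basal-like cells Axin2 was found in 39.6% (30.0 to 49.8) of 101 cells with Lgr6 and in 21.7% (19.3 to 24.2) of the 1099 without, whereas it was 22.9% (13.7 to 34.4) and 23.2% (20.8 to 25.8) with and without Lgr5. Each class pools clusters, and over the TripleTg basal-like clusters of at least 50 cells Lgr6 ran from 2.74 to 49.0 CPM. Shares within clusters were not computed, so these differences cannot be told apart from differences between clusters. Cells of 1 library are not replicates, so these shares describe that library.

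The stroma held a second site of Lgr5. In DoubleTg 95 of 179 Lgr5 UMIs (53.1%) came from fibroblast-like cells, which were 8.94% of the cells, and their level was 10.1 CPM (8.21 to 12.4). It was similar in the cells led by Sult1e1, Lum and C3, at 11.005 CPM (8.11 to 14.6), and in those led by Wif1, Mgp and Cxcl14, at 9.39 CPM (6.90 to 12.5). TripleTg fibroblast-like cells had 43 UMIs, or 8.15 CPM (5.90 to 10.98), a log2 ratio to DoubleTg of -0.31 (-0.87 to 0.22). Schwann-like cells had 3 UMIs of Lgr5 in each library, or 14.4 CPM (2.96 to 41.96) in 39 DoubleTg cells and 27.1 CPM (5.58 to 79.1) in 25 TripleTg cells. Luminal-like cells were therefore 5.69 lower than fibroblast-like cells on the log2 scale in DoubleTg and 0.89 higher in TripleTg. Epithelial RNA was also counted in these classes, and its part in their Lgr5 levels was not tested. Per 1000 UMIs of the epithelial markers (Epcam, Cdh1, Krt8, Krt18, Krt19 and Cldn7), Lgr5 had 2.88 UMIs in DoubleTg fibroblast-like cells and 0.0203 in the epithelial-like cells of that library. The DoubleTg immune-like and smooth muscle-like ratios, on 5 and 3 UMIs of Lgr5, were 0.226 and 0.810, and the Schwann-like ratios were 6.82 in DoubleTg and 21.6 in TripleTg. In TripleTg the values were 1.83 in fibroblast-like, 0.855 in endothelial-like, 0.645 in immune-like and 0.866 in epithelial-like cells. Single TripleTg epithelial clusters reached 1.85 in the Ifi202b, 2.13 in the Mt4 and 2.75 in the Krt75 cluster, so the fibroblast-like ratio of TripleTg was not above those of all epithelial clusters.

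R-spondin sources were compared next. In the fibroblast-like cells as a class Rspo3 was the highest ligand in both libraries. Rspo1 was the second and was higher in TripleTg, Rspo4 was near the limit of detection, and Rspo2 was not detected. Rspo2 had 0 UMIs in both libraries, which allows up to 0.0117 CPM over the DoubleTg cells and 0.0131 CPM over the TripleTg cells.

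Rspo3, a ligand that binds all 3 receptors, had 1391 UMIs in DoubleTg fibroblast-like cells, or 148.5 CPM (140.8 to 156.5), and 426 in TripleTg fibroblast-like cells, or 80.8 CPM (73.3 to 88.8). The log2 ratio was -0.88 (-1.04 to -0.72). These cells gave 91.0% of the DoubleTg and 87.5% of the TripleTg Rspo3 UMIs while making up 8.94% and 6.65% of the cells. At 5000 UMIs per cell Rspo3 was found in 34.9% (31.1 to 38.8) and 27.7% (23.1 to 32.7) of fibroblast-like cells, and in 0 of 691 and 0 of 454 immune-like cells, for which the upper limits of the intervals were 0.532% and 0.809%. The TripleTg level averaged with equal weight per cell was 120.7 CPM, against 156.5 in DoubleTg. In fibroblast-like cells 12.8% of 13512 genes were past 2-fold higher in TripleTg and 7.27% past 2-fold lower. Of the 4 members measured there, 1 was past 2-fold higher and 0 past 2-fold lower, so Rspo3 did not pass that fold. It did pass it when the cells marked by Scrublet, all of them DoubleTg, were left out, with 173.3 CPM in DoubleTg and 80.8 CPM in TripleTg.

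The fibroblast-like class was made of different clusters in the libraries. In DoubleTg Rspo3 was 184.3 CPM (171.8 to 197.5) in cells led by Sult1e1, Lum and C3 and 117.3 CPM (108.0 to 127.2) in cells led by Wif1, Mgp and Cxcl14. TripleTg had 106.4 CPM (92.8 to 121.6) in cells led by Apod, Lum and Gpx3, 109.2 CPM (92.1 to 128.5) in cells led by Col6a1, Col6a2 and Crispld2, and 33.2 CPM (25.5 to 42.5) in cells led by Col3a1, Mfap5 and Col1a2. The last cluster, which also had Pi16 among its 10 leading genes, was lower than the other TripleTg clusters without overlap. Without it the TripleTg clusters overlapped the Wif1 cluster of DoubleTg and lay below the Sult1e1 cluster.

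Rspo1 differed in the other direction between the genotypes. Fibroblast-like cells had 29 UMIs, or 3.10 CPM (2.07 to 4.45), in DoubleTg and 141 UMIs, or 26.7 CPM (22.5 to 31.5), in TripleTg, a log2 ratio of 3.11 (2.53 to 3.74). As means over cells the levels were 4.93 and 28.9 CPM. Of the 141, 97 came from the 153 cells led by Col3a1 and Mfap5, at 51.1 CPM (41.5 to 62.4), where Rspo3 was lowest. In this cluster Rspo3, at 33.2 CPM, was below Rspo1, although the intervals overlapped. The Apod cluster had 43 UMIs, or 21.0 CPM (15.2 to 28.3), and the Col6a1 cluster had 1 UMI. DoubleTg UMIs came mainly from the Sult1e1 cluster, with 24 UMIs, or 5.50 CPM (3.53 to 8.19), and 5 from the Wif1 cluster. The fibroblast-like cells held 93.5% of the DoubleTg and 91.6% of the TripleTg Rspo1 UMIs. Epithelial-like cells had 0 and 7 UMIs of Rspo1.

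**Figure D3:**
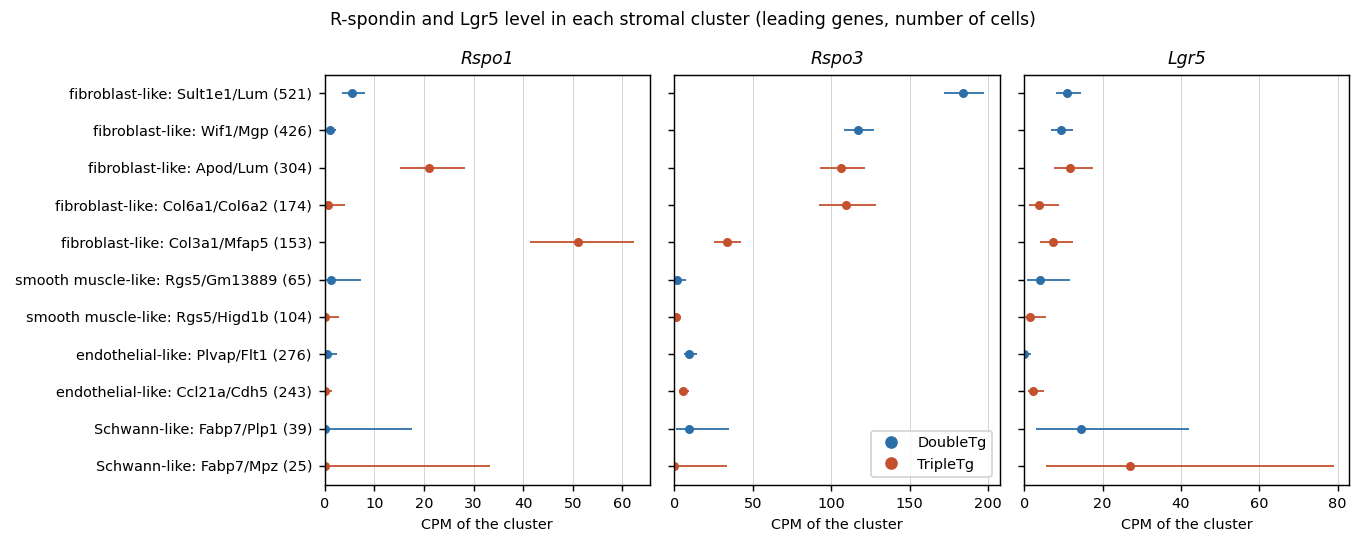
Level of Rspo1, Rspo3 and Lgr5 (horizontal axis, CPM of the cluster, linear) in each stromal cluster, named by its 2 leading genes with its number of cells. Points are clusters of 1 library and bars are 95% counting intervals. Rspo3 was highest in the DoubleTg Sult1e1 cluster at 184.3 CPM, and Rspo1 in the TripleTg Col3a1 cluster at 51.1 CPM.

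Other stromal cells held little R-spondin. Endothelial-like cells had 21 UMIs of Rspo3, or 9.45 CPM (5.85 to 14.4), in DoubleTg and 14 UMIs, or 5.41 CPM (2.96 to 9.08), in TripleTg. With finer clusters (Leiden resolution 2) the DoubleTg endothelial-like value was 2.67 CPM, and the TripleTg value was 11.2 CPM as a mean over cells and 2.48 CPM at 5000 UMIs per cell. Smooth muscle-like cells had 1 UMI of Rspo3 in each library, or 1.32 CPM (0.0333 to 7.34) and 0.782 CPM (0.0198 to 4.36). Their clusters, of 65 and 104 cells, were led by Rgs5, a marker on the pericyte list. Myh11 was found in 49.2% and 36.5% of their cells, so smooth muscle and pericytes were not told apart here. Schwann-like cells had 2 and 0 UMIs of Rspo3. Relative to 1000 UMIs of the fibroblast markers, Rspo3 had 31.7 UMIs in DoubleTg and 29.9 UMIs in TripleTg endothelial-like cells, beside 14.6 and 5.36 in the fibroblast-like cells. Fibroblast-like clusters of TripleTg ranged from 1.27 to 28.0 in this ratio, so the endothelial-like value, on 14 UMIs, was near that of the Col6a1 cluster.

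Rspo3 in epithelial-like cells was low, at 106 UMIs, or 0.460 CPM (0.377 to 0.556), in DoubleTg and 39 UMIs, or 0.208 CPM (0.148 to 0.285), in TripleTg. Of the DoubleTg UMIs, 49 came from the 572 luminal-like cells led by Sbp, Sbpl and Scgb2b27, in which 38 cells had at least 1 UMI and the level was 1.53 CPM (1.13 to 2.02). Immune-like cells of that library had 0.345 CPM (0.0712 to 1.01). The ratio to fibroblast markers was 34.9 UMIs per 1000 in the Sbp cluster and 13.8 over all luminal-like cells, beside 14.6 in fibroblast-like cells. Other DoubleTg luminal-like clusters had similar levels on fewer UMIs. The Spink5 cluster had 16 UMIs, or 1.08 CPM (0.618 to 1.76), and a ratio of 50.8, and the Ube2c and Rsad2 clusters had 8 UMIs each, or 2.50 CPM (1.08 to 4.93) and 1.56 CPM (0.672 to 3.07). Of the 8 in the Ube2c cluster 5 came from 1 cell, and the ratios of these clusters were 18.2 and 8.38. In TripleTg 13 of the 14 basal-like UMIs came from the Ifi202b cluster, 11 of them in 1 cell, and 7 of the 9 seminal vesicle-like UMIs came from 1 cell.

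Rspo4, known for its role in nail development, had 1 UMI in DoubleTg, in a fibroblast-like cell, and 11 in TripleTg, each in a different cell. Of the 11, 8 were in basal-like cells, at 0.256 CPM (0.111 to 0.505), and 2 in luminal-like cells. All 8 were in the Mt4 cluster, at 1.02 CPM (0.440 to 2.01), and the other basal-like clusters had 0. The basal-like cells of DoubleTg had 0 UMIs, which allows up to 0.116 CPM, and TripleTg immune-like cells also had 0, which allows up to 0.517 CPM. Rspo4 thus had its few UMIs mainly in the cluster with the highest Lgr6.

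The other genes of the pathway were then described in the same cells. A list of 16 genes of the receptor machinery had 14 measured in epithelial-like cells, of which 3 were past 2-fold higher in TripleTg and 2 past 2-fold lower, with a median log2 ratio of -0.33 beside -0.13 for all genes. Over all genes 12.6% were past 2-fold higher and 13.9% past 2-fold lower, so the share of list genes lower was near that of all genes. The genes past 2-fold higher were the ligases that R-spondin neutralizes, Rnf43 with 3.47 CPM in DoubleTg and 23.3 CPM in TripleTg (log2 ratio 2.75, 2.64 to 2.86) and Znrf3 with 5.85 and 23.3 CPM (1.99, 1.90 to 2.08), and the Frizzled receptor Fzd10 with 0.0477 and 1.30 CPM (4.77, 3.91 to 5.79). Past 2-fold lower were Fzd4, with 6.29 and 1.40 CPM (-2.16, -2.36 to -1.97), and the glypican Gpc3, with 4.58 and 1.37 CPM (-1.74, -1.94 to -1.54). Gpc3 differed in basal-like cells, at 35.6 and 5.74 CPM (-2.64, -2.87 to -2.40), and was under 1 CPM in luminal-like cells of both libraries. The Wnt co-receptors were within 2-fold, Lrp6 at 36.0 and 29.5 CPM and Lrp5 at 13.9 and 10.7 CPM. Sdc4, a syndecan that binds R-spondin, was 941.0 and 529.5 CPM.

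A list of 12 genes known from Lgr5-positive intestinal stem cells and from Wnt feedback had 10 measured, with 6 past 2-fold higher, 0 past 2-fold lower (12.6% and 13.9% of all genes) and a median log2 ratio of 2.04. Among them Axin2 stood at 2.45 and 72.1 CPM (log2 ratio 4.88, 4.76 to 5.001), Nkd1, an inhibitor of Dishevelled, at 1.20 and 56.1 CPM (5.54, 5.37 to 5.72), Notum, a secreted enzyme that inactivates Wnt proteins, at 1.07 and 38.9 CPM (5.18, 4.997 to 5.37), and Tnfrsf19 at 5.61 and 23.9 CPM (2.09, 2.003 to 2.18). The members within 2-fold were Sox9, Prom1, Cdca7 and Smoc2, with log2 ratios from -0.65 for Sox9 to 0.34 for Cdca7. Within classes Prom1 and Cdca7 went in opposite directions. Prom1 had a log2 ratio of -2.94 (-3.21 to -2.69) in luminal-like and 1.92 (1.52 to 2.34) in basal-like cells. Cdca7 had 1.18 (1.01 to 1.35) and -1.96 (-2.29 to -1.64). Sox9 was lower in both, at -0.44 (-0.45 to -0.42) and -1.59 (-1.64 to -1.53). The intestinal stem cell genes Olfm4, with 2 and 115 UMIs, and Ascl2, with 18 and 66 UMIs, stayed under 1 CPM in both libraries. Rnf43 and Znrf3 belong to both lists. In fibroblast-like cells the machinery list had 2 of 15 measured genes past 2-fold higher, Rnf43 and Gpc3, and 1 past 2-fold lower, Fzd9. Fzd9 had 13 UMIs in DoubleTg and 0 in TripleTg, or 2.44-fold lower when 3 UMIs are set for TripleTg. The counting interval of its ratio reached -0.78 on the log2 scale, which is within 2-fold. The feedback list had 4 of 10 past 2-fold higher there (Rnf43, Smoc2, Notum and Axin2) and a median log2 ratio of 0.66. The fibroblast-like cells also held epithelial marker RNA, at 3518 CPM in DoubleTg and 4458 CPM in TripleTg beside 15634 and 14357 CPM in epithelial-like cells, and its part in these ratios was not tested. Over all genes of these cells 12.8% were past 2-fold higher and 7.27% past 2-fold lower.

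**Figure D4:**
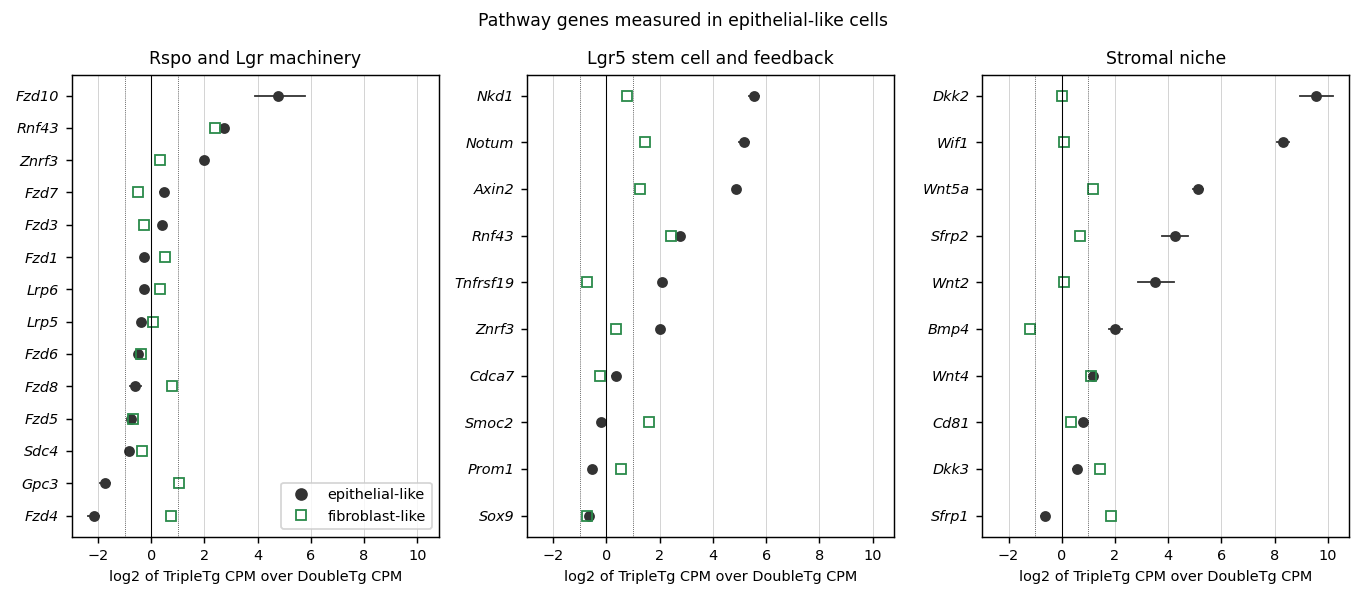
Log2 ratio of TripleTg CPM over DoubleTg CPM (horizontal axis) for the genes of 3 pathway lists with at least 1 CPM in epithelial-like cells of either library. Circles are epithelial-like cells with 95% counting intervals, squares are fibroblast-like cells where measured, and dotted lines mark 2-fold. Dkk2 and Wif1 were far to the right in epithelial-like cells and near 0 in fibroblast-like cells.

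Of 17 genes that mark or are secreted by stromal niches, 10 were measured in epithelial-like cells, with 7 past 2-fold higher in TripleTg, 0 past 2-fold lower (12.6% and 13.9% of all genes) and a median log2 ratio of 2.76. The largest ratios were those of the secreted Wnt antagonists Dkk2, at 0.104 and 77.5 CPM (log2 ratio 9.54, 8.96 to 10.2), and Wif1, at 0.638 and 202.7 CPM (8.31, 8.08 to 8.56), and of the ligand Wnt5a, at 1.02 and 35.3 CPM (5.12, 4.93 to 5.32). In fibroblast-like cells 16 of the 17 were measured, with 7 past 2-fold higher and 2 past 2-fold lower (12.8% and 7.27% of all genes), and a median log2 ratio of 0.58 beside 0.08 for all genes. Among those higher were Sfrp4, at 15.4 and 128.2 CPM (3.06, 2.80 to 3.33), and Sfrp1, at 289.8 and 1047 CPM (1.85, 1.79 to 1.92), both secreted Frizzled-like proteins, together with Dkk3, Wnt5a and Wnt4. The BMP antagonist Grem1 had 0 UMIs in DoubleTg and 46 in TripleTg, or 27.2-fold higher when 3 UMIs are set for the DoubleTg class. The counting interval of its log2 ratio starts at 4.41, which is a smaller fold. Lower were Bmp4, at 61.7 and 27.3 CPM (-1.18, -1.45 to -0.91), and Foxl1, at 15 and 4 UMIs (-1.08, -3.13 to 0.57). Wif1, at 692.9 and 738.1 CPM, and Dkk2, at 118.1 and 119.1 CPM, had log2 ratios of 0.09 (0.03 to 0.15) and 0.01 (-0.13 to 0.16) in fibroblast-like cells.

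Genes whose level ran most like each member's were sought over the 49 clusters of at least 50 cells in both libraries, among 12390 genes, by the Pearson correlation of log2(CPM + 1). The clusters share libraries, so the values are a description. Lgr4 ran most like Otud7b, Ddr1 and Slc25a24 (r from 0.87 to 0.88). Lgr5 was closest to Prickle1 (r = 0.90), Tenm4 (0.88) and Axin2 (0.87). Lgr6 was closest to Guca2a (0.86), Dsg3 (0.86), a desmosomal cadherin of stratified epithelium, and Irx4 (0.83). Rspo1 was closest to Lgi2 (0.95), C1qtnf3 and Figf (both 0.94), and Rspo3 to Flrt2 (0.93), Crispld1 (0.93) and Pdgfra (0.92), the last a receptor of fibroblasts. Spearman's rho was from 0.80 to 0.86 for the genes like Lgr4 and Lgr5, but from 0.44 to 0.63 for Lgr6, 0.49 to 0.56 for Rspo1 and 0.31 to 0.48 for Rspo3.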

How the data were processed

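Prostate tumor tissue was dissociated with collagenase and TrypLE, and libraries were prepared with 10x Genomics 3′ v3 chemistry, 1 per genotype. The deposited files hold raw UMI counts for each gene in each cell, which the authors obtained by running Cell Ranger against mm10 with the human HGF and MET transgene sequences added. The submitters' processing notes name version 6.0.2, and the DoubleTg matrix header names 6.1.1. The cell limits of the study (over 200 and under 7000 genes, under 15% mitochondrial UMIs) removed 71, 421 and 1042 DoubleTg cells for few genes, many genes and mitochondrial share, with some cells failing more than 1. All TripleTg cells passed, since the deposited TripleTg file held only cells within these limits.

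Each library was clustered separately in scanpy 1.11.5 (2000 variable genes without the 7 members, 20 principal components, 15 neighbours, Leiden resolution 1). Clusters were called "like" a cell type from marker lists, and the naming thresholds were set after the clusters were seen. Names rebuilt in this way need not match the names the authors used. Epithelial clusters whose 10 leading genes held more markers of another cell type than of the epithelial lists stayed unnamed. So did clusters without an own marker in a share of 0.5 of their cells. Msln, on the mesothelial list, left the TripleTg Fam213a cluster unnamed by this rule. The DoubleTg cluster led by Msln was named luminal-like because Psca was also among its leading genes. UMIs were summed per library and class. Intervals are exact Poisson (sums), exact binomial (shares) and conditional binomial (ratios) at 95%, and cover counting error only. A count of 0 allows up to 3 UMIs. Genes with at least 1 CPM in either library were compared, and "past 2-fold" is a rule of size, not a test. No p-values were computed because each genotype had 1 library. Thinning drew 5000 UMIs per cell without replacement. Doublets were not removed. Scrublet marked 333 DoubleTg cells (3.14%) and 0 TripleTg cells, so its TripleTg calls were not relied on, and whether that file held few doublets was not tested. The interval step was run on simulated counts for the epithelial-like comparison (28000 genes). Among 11300 genes with an interval, 95.2% of intervals held the true ratio, and 197 of 200 changed genes were within 0.2 log2. The counts were drawn from the Poisson model that the intervals assume, so this checks the calculation only. It cannot show how the intervals behave for counts that differ between cells, clusters or animals.

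Named genes were the 7 members, the genes of 3 pathway lists, and the 3 genes most like each member over clusters. Clusters are named by their 3 leading genes. Some listed genes are not reported here. The members and the lists were chosen with earlier results of these data known. Alternatives were TMM factors (edgeR 4.0.16), thinning, no cell limits, other clusterings, doublet removal and other thresholds.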

Additional observations from a re-analysis of the deposited data

Results flagged for a closer look

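Lgr5 ran in opposite directions between cell classes of the 2 libraries. The log2 ratio of luminal-like over fibroblast-like cells was -5.69 in DoubleTg and 0.89 in TripleTg, and this difference between genotypes was not tested. Lgr5 was also present in the TripleTg clusters that stayed unnamed and entered none of the comparisons between classes, at 15.7 CPM (14.3 to 17.3) over 1913 cells, whereas the 1365 cells of unnamed DoubleTg clusters had 0 UMIs, which allows up to 0.576 CPM. It was found in all 6 unnamed TripleTg clusters. The 544 cells led by Fam213a, Pdzk1 and Pigr had 14.2 CPM (12.5 to 16.1) at a median of 27111 UMIs per cell. In this cluster the epithelial markers were found on average in 99.4% of cells. The 399 shallow cells led by Gm26917, Gm26870 and Lars2, with a median of 2555 UMIs, had 39.1 CPM (30.1 to 49.99). The 648 cells led by the globin genes Hba-a1, Hbb-bs and Hba-a2 had 18.65 CPM (14.1 to 24.2) at a median of 1974 UMIs. The clusters led by Gzma (143 cells) and S100a8 (149 cells) had 11.5 and 13.7 CPM, above the 1.21 CPM of the TripleTg immune-like class, and the 30 cells led by Fgb had 2 UMIs, or 5.21 CPM (0.631 to 18.8).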

How the results depend on the processing

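TripleTg settings that removed no cell could not move a value and were left aside. For the main results, 56 alternatives stayed within the interval of the main value or, for a count, within 1.5 times it. Another 32 did not. These results held receptor ratios, list counts, shares and some levels of single genes. For the other levels of single genes, 52 alternatives stayed and 11 did not. None changed the direction of a receptor ratio. The Lgr4 log2 ratio was -0.50 at Leiden resolution 0.5, -0.41 in luminal-like clusters only and -0.48 with unnamed clusters added. For Lgr5 the ratio was 4.84 at 5000 UMIs per cell and 6.27 in luminal-like clusters only, and for Lgr6 it was 4.09 in luminal-like clusters only. The Lgr6 ratio at 5000 UMIs per cell has no value because DoubleTg then had 0 UMIs. Lgr6 in TripleTg basal-like cells was 19.3 CPM at Leiden resolution 2 and 24.4 CPM without the 5% of cells with the highest Scrublet scores, an alternative added after seeing the data. Rspo1 in TripleTg fibroblast-like cells was 32.0 CPM at resolution 2 and 36.7 CPM at 5000 UMIs per cell. Rspo3 in DoubleTg fibroblast-like cells was 173.3 CPM without Scrublet doublets (past 2-fold above TripleTg), 177.0 CPM without the highest scores, 179.0 CPM at resolution 2 and 177.7 CPM at 5000 UMIs per cell, and in TripleTg it was 120.7 CPM as the mean over cells, 95.8 CPM without the highest scores, 96.4 CPM at resolution 2 and 91.0 CPM at 5000 UMIs per cell. Fibroblast-like cells held 84.4% of DoubleTg Rspo3 UMIs with no cell limits. At 2000 and 10000 UMIs per cell the shares of cells were 7.79% and 28.4% for Lgr4 in DoubleTg luminal-like cells, 5.65% and 21.9% for Lgr4 in TripleTg ones, 2.82% and 13.0% for Lgr5 in TripleTg luminal-like cells, 3.26% and 14.7% for Lgr6 in TripleTg basal-like cells, and 21.8% and 40.3% for Rspo3 in DoubleTg fibroblast-like cells. In TripleTg fibroblast-like cells Rspo3 was 16.0% at 2000 UMIs. These shares move with the depth by construction. Machinery genes past 4-fold lower numbered 1, and stromal niche genes past 2-fold higher with a minimum of 3 UMIs numbered 11, when 20.5% of all 19435 genes were past 2-fold higher.

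No paired analysis was possible because each genotype had 1 library. Genotype, animal and library cannot be told apart, the median depth per cell differed by class (35451.5 UMIs in DoubleTg and 25555.5 in TripleTg luminal-like cells, 7914 and 5676 in fibroblast-like cells), and receptor counts near 1 UMI per cell limit any statement on single cells.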
